A study of Mus musculus with 14 samples.

Results

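The chemokine receptor genes Ccr1, Ccr2, Ccr9, Cx3cr1, Cxcr2 and Cxcr4 were followed across mouse bone marrow progenitors with and without the DNA-oxidising enzyme Tet2. They are 6 of the 18194 genes measured, and 16 further receptors of the family were measured beside them. All probe sets that the platform annotation assigns to these symbols were read, 15 in all. The genes were selected on measured values of these same arrays, and which contrast chose each one is not stated. Every difference of theirs is therefore given as a description, with no p. Where it is said how many of them passed the threshold used for other genes, nothing is read from it.

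The samples were 14 arrays in 7 groups of 2. Tet2 KO LSK, CMP and GMP cells were set against the same populations of WT littermates on a B6/129 background, all carrying Mx, and Tet2 was deleted by pIC injection. LSK are the lineage-negative, c-Kit and Sca1 positive cells that include the blood stem cells. CMP and GMP are Sca1-negative, CD34-positive myeloid progenitors, with low Fc gamma receptor on CMP and high on GMP. LSK and CMP were sorted 4 weeks after deletion, while for GMP no time is stated. The remaining KO group, called replated KO here, came from CD150-positive sorted LSK that had been replated 5 times in culture, so it is set against the sorted KO populations, and no replated WT cells were analysed here. The Mx promoter used to drive Cre is active in many interferon-responsive tissues, so the deletion is not limited to blood progenitors, and pIC itself is an interferon inducer. Whether both arrays of a group represent separate animals or cultures is not stated, so a p below reflects only the spread between these samples, which may be technical.

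Chemokine receptors are membrane proteins with 7 helices that sense gradients of small secreted chemokines and couple mainly to Gi proteins, which steer cell movement. In the marrow, Cxcr4 and its ligand Cxcl12 hold stem and progenitor cells in place, while Cxcr2 and Ccr2 let neutrophils and monocytes leave for the blood. Ccr1 and Ccr2 bind inflammatory CC chemokines, Cx3cr1 binds the membrane-anchored Cx3cl1 and marks monocyte-lineage cells, and Ccr9 binds Ccl25 and serves lymphoid precursors on their way to the thymus.

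Because the study concerns an enzyme that acts on CG dinucleotides, the 250 bases before the RefSeq start site are shown for 3 of the receptors, 1 with few CG pairs, 1 intermediate and 1 rich in them (RefSeq, GRCm38.p6, written 5′ to 3′ on the gene's strand, CG pairs in capitals). Ccr1 lies at chr9:123968693-123968942, Cx3cr1 at chr9:120068297-120068546 and Cxcr4 at chr1:128592300-128592549, each window on the minus strand.
Ccr1: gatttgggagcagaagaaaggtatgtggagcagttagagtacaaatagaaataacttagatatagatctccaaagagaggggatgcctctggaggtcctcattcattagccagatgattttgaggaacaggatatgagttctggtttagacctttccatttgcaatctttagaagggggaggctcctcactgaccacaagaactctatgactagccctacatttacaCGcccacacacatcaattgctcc
Cx3cr1: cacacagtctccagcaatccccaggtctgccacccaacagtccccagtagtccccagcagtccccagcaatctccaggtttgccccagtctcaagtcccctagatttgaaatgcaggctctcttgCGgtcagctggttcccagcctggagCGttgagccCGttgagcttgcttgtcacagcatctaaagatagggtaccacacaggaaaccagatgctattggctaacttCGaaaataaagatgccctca
Cxcr4: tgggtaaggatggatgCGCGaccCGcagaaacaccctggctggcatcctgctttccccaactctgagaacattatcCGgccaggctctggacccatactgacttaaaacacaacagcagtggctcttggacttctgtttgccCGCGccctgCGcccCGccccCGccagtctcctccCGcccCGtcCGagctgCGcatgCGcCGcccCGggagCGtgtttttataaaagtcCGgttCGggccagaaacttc

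All 6 genes had such a window. The Ccr1, Ccr2 and Cxcr2 windows held 1 CG pair each, and 18.8% of the 32851 windows in the table held as few or fewer. Ccr9 had 3 and Cx3cr1 had 4 (37.8% and 44.4% of windows), against a median of 6 over the table. Cxcr4 had 19, a number that 82.1% of windows did not exceed. The motif GAGGAA, letters that ETS factors such as the myeloid regulator PU.1 bind, was the only motif searched, on both strands. It occurred in the Ccr1 window on the gene's own strand, starting 129 bases before the start site, and in the Cxcr2 window on the other strand. It was found in 23.3% of all windows. These are matches of letters only, and no methylation or binding was measured.

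A check of the labels came first. The brightest Tet2 probe set gave 855 and 1859 in KO LSK against 829 and 454 in WT LSK, 2011 and 1943 in KO CMP against 1225 and 1287 in WT CMP, and 2376 and 2228 in KO GMP against 2045 and 1204 in WT GMP. Its position relative to the deleted exons was not analysed here, so it does not check the genotype. The Fc gamma receptor gene Fcgr3 followed the sort, with 382 to 571 in the 4 LSK arrays, 634 to 1035 in CMP and 3382 to 5002 in GMP, and Kit and Cd34 were above the floor on all arrays (Ly6a, which encodes Sca1, was not measured here). The X-inactivation transcript Xist read 4980 to 6634 in the sorted KO arrays and 18.7 to 29.7 in the WT arrays, and the Y-linked Eif2s3y read 6.47 to 12.5 in sorted KO and 772 to 1203 in WT. The replated KO arrays resembled WT in both genes, with Xist at 18.4 and 21.9 and Eif2s3y at 2056 and 2083. In every comparison of KO with WT, and of replated with sorted KO cells, the groups thus also differed in sex-linked expression, and its part cannot be told apart from that of genotype or culture.

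Values are RMA intensities on a linear scale, and the floor, the highest of 27 bacterial control probe sets on an array, lay between 20.8 and 27.8. Group levels are geometric means of both arrays. Differences are on the log2 scale with the moderated standard error (SE) of limma, and where the dimmer group was at or below the floor on both arrays the fold is written as "at least". For other genes, a test passed at a Benjamini-Hochberg adjusted p under 0.05 over all 18194 genes. In these bulk samples, fewer expressing cells and less RNA per cell cannot be told apart.

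Ccr1, a receptor for Ccl3, Ccl5 and, in mice, Ccl6 and Ccl9, was higher in KO than in WT in all 3 populations and close to the floor in WT. Its brighter probe set read 28.9 and 47.2 in KO LSK against 15.3 and 16.0 in WT LSK, the WT arrays lying below the floor. In CMP it read 284 and 298 in KO against 25.0 and 27.3 in WT. In GMP it read 469 and 587 in KO against 27.4 and 37.8 in WT. The KO and WT arrays did not overlap in any of the 3 populations. Ccr1 was at least 1.70-fold higher in KO LSK than in WT LSK (log2 difference 1.24 ± 0.25 SE). The difference was 3.48 ± 0.25 in CMP, an 11.1-fold higher level, and 4.03 ± 0.25 in GMP, a 16.3-fold higher level. Averaged over the populations it was 2.92 ± 0.14, at least 6.76-fold. The KO series from LSK through CMP to GMP ran 36.9, 291 and 525 in group level, and the WT series 15.6, 26.1 and 32.2.

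**Figure D1:**
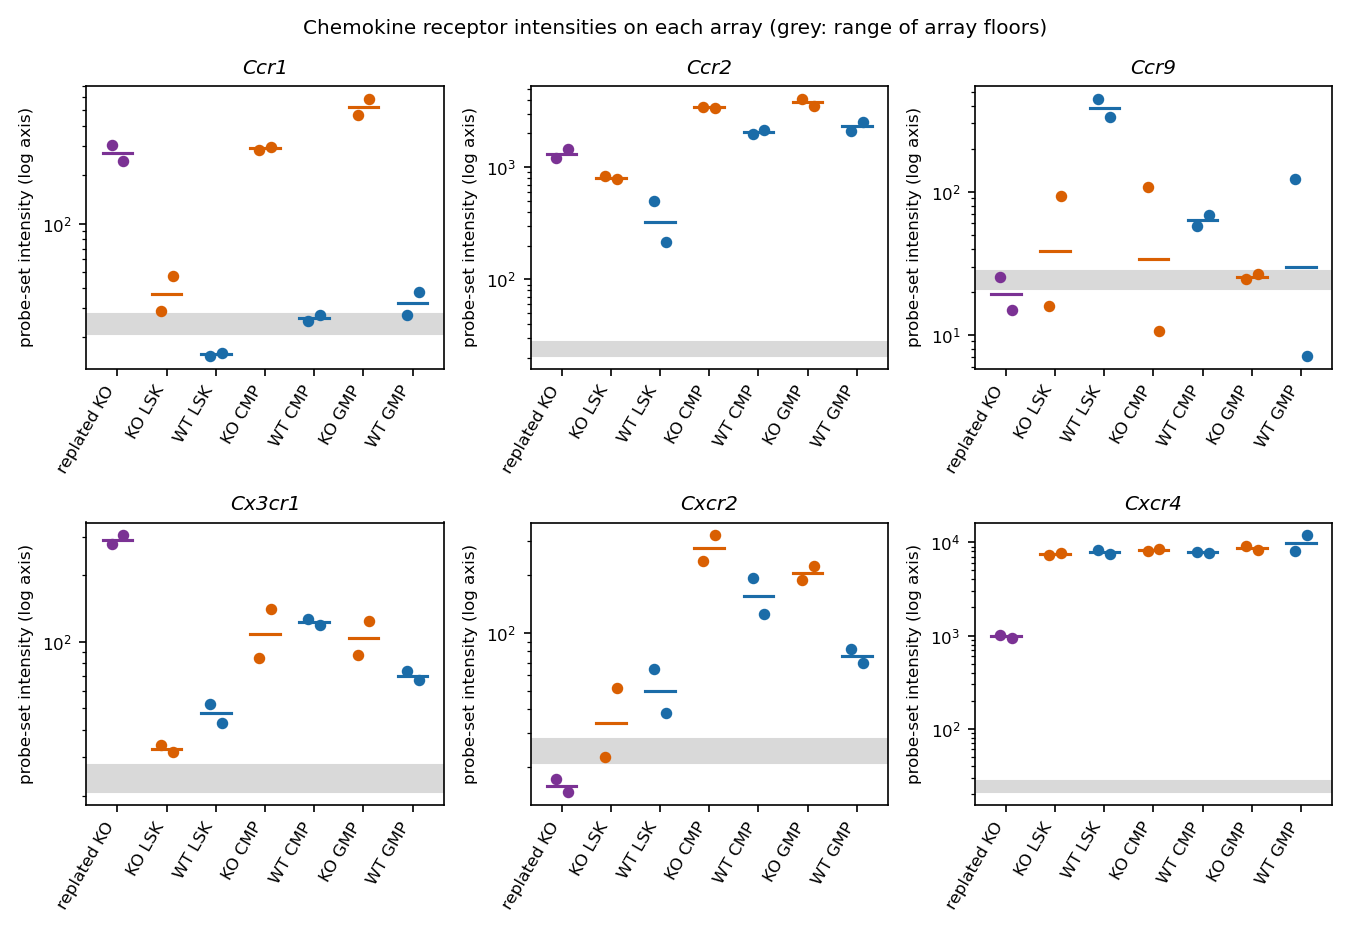
Intensity (log scale) of the main probe set of each of the 6 receptor genes on every array, by group; points are single arrays, bars the group level and the grey band the range of the array floors. Ccr1 in KO CMP (284 and 298) and KO GMP (469 and 587) stands above every WT array, and Cxcr4 in replated KO (1012 and 945) stands below every sorted array.

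The other Ccr1 probe set was dim. It read 34.5 and 20.2 in KO CMP against 6.08 and 7.01 in WT CMP, 47.6 and 18.5 in KO GMP against 6.94 and 7.69 in WT GMP, and stayed below the floor in both LSK groups. Only 1 of the 2 arrays of KO CMP and of KO GMP was above the floor. The KO arrays were again above the WT arrays, by at least 1.08-fold in CMP and at least 1.27-fold in GMP. The fitted log2 difference was 2.02 ± 0.39 in both populations.

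Ccr2, the receptor for Ccl2 that releases monocytes from the marrow, was higher in KO than in WT in all 3 populations. Its brightest probe set read 842 and 778 in KO LSK against 498 and 213 in WT LSK. It read 3476 and 3403 in KO CMP against 1992 and 2141 in WT CMP. In GMP it read 4069 and 3506 in KO against 2109 and 2536 in WT. No KO array overlapped the WT arrays of its population. The difference was 1.31 ± 0.32 in LSK, 0.74 ± 0.32 in CMP and 0.71 ± 0.32 in GMP, or 2.48-, 1.67- and 1.63-fold, and 0.92 ± 0.19 on average (1.89-fold). Of the 3 other Ccr2 probe sets, 1 gave larger differences (1.88 in CMP and 1.43 in GMP, and at least 2.96-fold in LSK) and 1 similar ones (0.78 in CMP and 0.96 in GMP, and at least 1.66-fold in LSK). The third was at least 1.15-fold higher in KO LSK, but its difference was -0.87 ± 0.66 in CMP and -0.11 ± 0.66 in GMP, where WT arrays spread widely (180.4 and 441 in WT CMP, 115 and 389.7 in WT GMP). In WT LSK all 3 of these were below the floor.

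**Figure D2:**
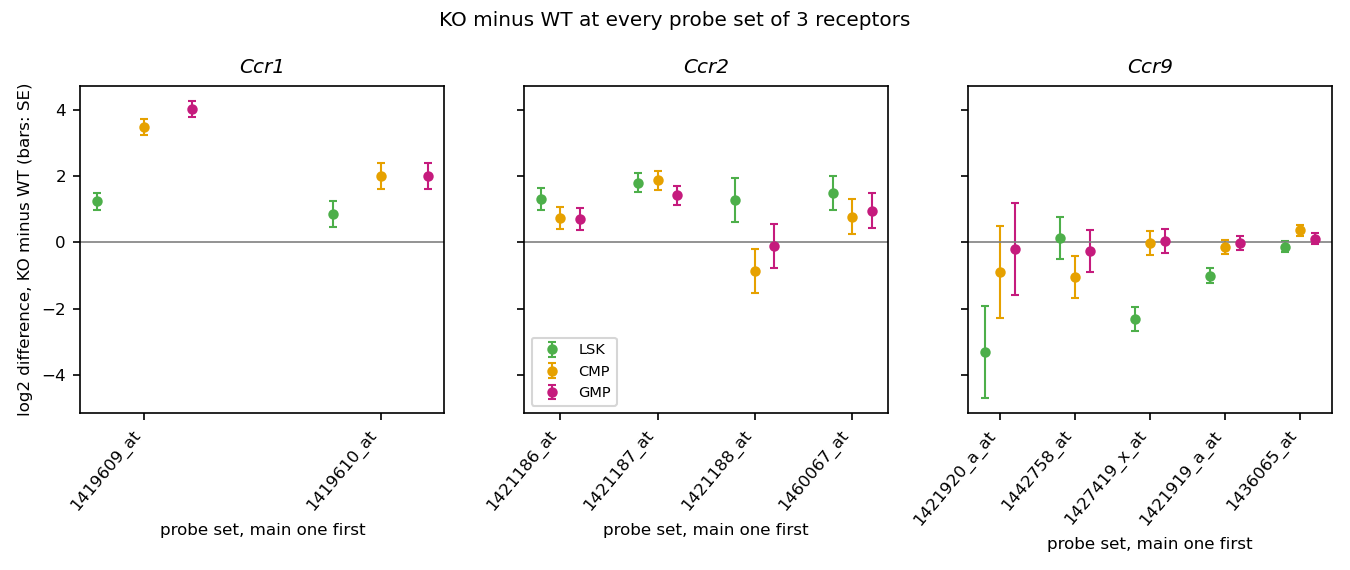
Log2 difference, KO minus WT, of each Ccr1, Ccr2 and Ccr9 probe set in LSK, CMP and GMP, with SE bars, as fitted (values below the floor included). Both Ccr1 probe sets lie above 0 in all populations, 3 of 4 Ccr2 probe sets do, and the main Ccr9 probe set is at -3.32 in LSK.

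Cxcr2, the neutrophil receptor for Cxcl1, Cxcl2 and their relatives, was higher in the KO myeloid progenitors. It read 236 and 322 in KO CMP against 193 and 126 in WT CMP, and 188 and 222 in KO GMP against 82.8 and 69.9 in WT GMP. In LSK the arrays overlapped, at 22.5 and 51.5 in KO and 64.9 and 38.4 in WT. The differences were 0.82 ± 0.40 in CMP and 1.43 ± 0.40 in GMP (2.69-fold), and -0.55 ± 0.40 in LSK. Cxcr2 had 1 probe set.

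Cx3cr1, the fractalkine receptor, lay on opposite sides of WT in LSK and in GMP. It read 34.1 and 31.6 in KO LSK against 52.3 and 43.1 in WT LSK, 84.5 and 141 in KO CMP against 127 and 119.7 in WT CMP, and 87.0 and 125 in KO GMP against 73.7 and 66.9 in WT GMP. Both KO arrays were below the WT arrays in LSK, overlapped them in CMP and were above them in GMP. The differences were -0.53 ± 0.25, -0.18 ± 0.25 and 0.57 ± 0.25. Its other probe set stayed below the floor on all 14 arrays.

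Ccr9 read 15.8 and 93.9 in KO LSK against 445 and 330.3 in WT LSK, which was its brightest group. The log2 difference in LSK was -3.32 ± 1.39, and arrays of the same group differed widely elsewhere too (108 and 10.7 in KO CMP, 24.4 and 26.6 in KO GMP, 58.0 and 68.4 in WT CMP, 122 and 7.14 in WT GMP). Of the 4 other Ccr9 probe sets, 2 were also lower in KO LSK than in WT LSK without overlap, at least 1.85-fold (20.5 and 19.3 against 34.5 and 45.8) and at least 1.45-fold (4.97 and 8.02 against 46.8 and 20.9). The latter was above the floor on only 1 of 14 arrays, the first WT LSK array. The remaining 2 overlapped in LSK, and 1 of them was below the floor on every array. The summed intensity of 11 B cell markers was 6615 to 8096 in KO LSK and 16649 to 19685 in WT LSK, where Pax5 was below the floor in both groups and Ms4a1 in WT. Of the 11, 1 passed the threshold as lower in KO LSK (Rag2) and 1 as higher (Ms4a1), while the other 8 with a negative difference did not pass. The part of lymphoid-marked cells in the Ccr9 difference was not tested.

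Cxcr4, the receptor for Cxcl12, was close in KO and WT cells. It read 7307 and 7746 in KO LSK against 8270 and 7514 in WT LSK, 8093 and 8394 in KO CMP against 7872 and 7774 in WT CMP, and 9035 and 8210 in KO GMP against 8005 and 11876 in WT GMP. The differences were -0.07, 0.08 and -0.18, each ± 0.18, and the arrays overlapped in LSK and GMP. In CMP both KO arrays were above the WT arrays, by 1.05-fold.

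**Figure D3:**
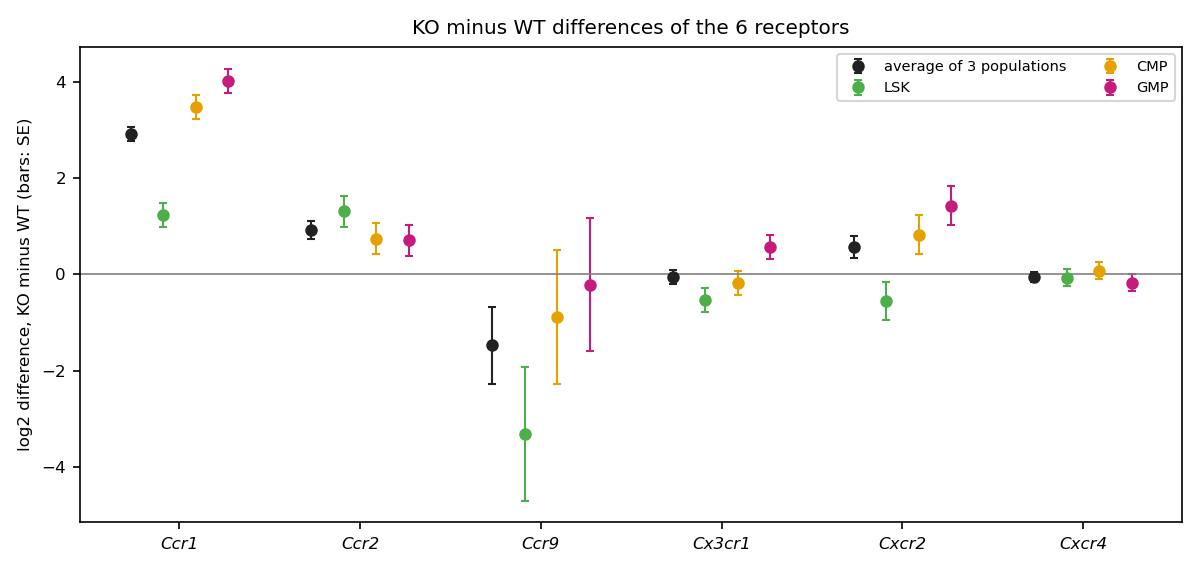
Log2 difference, KO minus WT, of the main probe set of each receptor on average (black) and in LSK, CMP and GMP, with SE bars, as fitted. Ccr1 reaches 3.48 in CMP and 4.03 in GMP, Ccr2 lies between 0.71 and 1.31, and Cxcr4 between -0.18 and 0.08.

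Against all genes, the threshold was passed in KO against WT by 0.308% of genes on average, 0.264% in LSK, 0.121% in CMP and 0.0934% in GMP. Of the 6 receptors, 1 was past it on average, in CMP and in GMP (Ccr1 each time) and 0 were in LSK. Arrays lay without overlap higher in KO for 2 receptors in LSK, 4 in CMP and 4 in GMP, where 18.1%, 22.9% and 19.1% of all genes did. They lay lower for 2, 0 and 0, against 15.1%, 15.1% and 15.9% of all genes. In all 3 populations at the same time, 2 receptors (Ccr1 and Ccr2) were higher and 0 lower, against 1.29% and 0.918% of all genes. Since these contrasts were known when the receptors were chosen, nothing is read from the counts.

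Monocyte, neutrophil and mast cell markers are given beside these differences, because mature cells of those kinds carry Ccr1, Ccr2, Cx3cr1 or Cxcr2. The summed intensity of 11 monocyte and macrophage markers was 5295 to 6165 in KO LSK and 5045 to 5332 in WT LSK, 7799 to 8874 in KO CMP and 8486 to 10218 in WT CMP, and 12402 to 12471 in KO GMP and 10186 to 10353 in WT GMP, with Mertk below the floor in all of them. For 9 late neutrophil markers it was 14020.5 to 19846 in KO LSK and 18484 to 21900.3 in WT LSK, 15990 to 20039 in KO CMP and 12456 to 16454 in WT CMP, and 12682 to 15562 in KO GMP and 13942 to 14016 in WT GMP. For 8 mast cell and basophil markers it was 510 to 601 in KO LSK and 725 to 759 in WT LSK, 3015 to 3544 in KO CMP and 2543 to 2647 in WT CMP, and 4084 to 4954 in KO GMP and 3966 to 4583 in WT GMP, with Cma1 below the floor in both CMP groups. Of the 8 mast cell and basophil markers, 2 had a positive difference on average over the populations, and the list's median was -0.16. Both passed: Fcer1a, the IgE receptor alpha chain, was 9.48-fold higher in KO (limma, adjusted p = 0.0021), and Cd200r3 was the other. Cd200r3 was at or below the floor in every sorted group except KO GMP, so no fold is given for it. Of the 11 monocyte markers, 8 had a positive difference on average, and the list's median was 0.21 against 0.03 over all genes. An unadjusted p under 0.05 in limma was reached by 6 of them on average. In LSK, CMP and GMP, 9, 6 and 9 of the 11 were positive. On average 1 passed, Cd14, at 2.08-fold higher (limma, adjusted p = 0.0407). Of the 9 late neutrophil markers, 5 were positive on average, with a median of 0.02, and 0 passed. In LSK the recombinase gene Rag2 was lower in KO (log2 difference -1.82 ± 0.26, limma, adjusted p = 0.0337) and the B cell marker Ms4a1 was at least 8.25-fold higher (limma, adjusted p = 0.00136). The part of such cells in the receptor differences was not tested.

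None of the other 16 measured receptors passed limma's threshold in KO against WT, whether on average or in LSK, CMP or GMP (0 of 16 each time, with 4, 3, 2 and 0 at an unadjusted p under 0.05). Of the 16, 8 never rose above the floor and 4 were above it on all arrays (Ackr1, Ackr2, Ackr4 and Ccrl2). The median log2 difference of the 16 was 0.05 on average, against 0.03 over all genes. In LSK the smallest p was that of Ccr7, the lymph node homing receptor, at 11.9 and 14.9 in KO and 41.6 and 25.6 in WT (limma, adjusted p = 0.066). In CMP it was that of the atypical receptor Ackr1, which binds chemokines without Gi signalling, at 134 and 257 in KO and 43.5 and 46.3 in WT (log2 difference 2.05 ± 0.54, limma, adjusted p = 0.453). On average Ccr7 had an adjusted p of 0.222 in limma with a log2 difference of -0.54 ± 0.13, and Ackr1 one of 0.347 with 1.01 ± 0.31. In GMP, the receptors with the smallest p (Xcr1 and Ccr8) were below the floor in both groups.

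**Figure D4:**
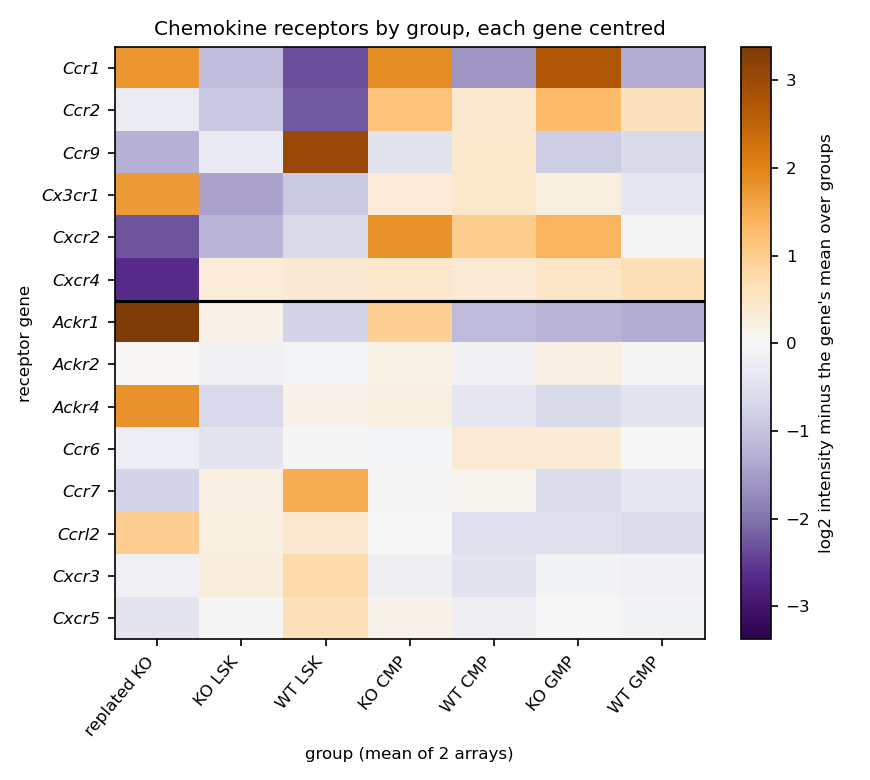
Group levels of the 6 receptors (above the line) and of the 8 further receptors with an array above the floor (below it), as log2 intensity minus that gene's own mean over the 7 groups, so colours compare groups within a row and not genes. Ccr1 is high in KO CMP, KO GMP and replated KO, Ackr1 and Ackr4 are high in replated KO, and Cxcr4 is low there.

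The ligands and the signalling chain showed no gene past the threshold by genotype either. Of 35 measured ligands, 0 passed in limma in any of the 4 comparisons (5, 4, 1 and 3 at an unadjusted p under 0.05, for the average, LSK, CMP and GMP). Ccl27a, a skin-homing chemokine, read 53.8 and 48.4 in KO LSK and 234 and 157 in WT LSK (limma, adjusted p = 0.0618). Ccl4, an inflammatory chemokine and relative of Ccl3, read 667 and 1044 in KO CMP and 225 and 163 in WT CMP, where the adjusted p of limma was 0.633, and 487 and 221 in KO GMP and 186 and 50.7 in WT GMP. The platelet chemokine Ppbp, a Cxcr2 ligand, read 132 and 133 in KO LSK and 70.2 and 60.7 in WT LSK (limma, adjusted p = 0.188). Of 31 signalling genes, 0 passed in limma (3, 2, 1 and 1 at an unadjusted p under 0.05). The smallest p in LSK was that of Arrb1, the receptor-silencing beta-arrestin, at 596 and 334 in KO and 201 and 126 in WT (log2 difference 1.49 ± 0.33, limma, adjusted p = 0.125).

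Ccr1 sits in a receptor cluster: 15 of the 24 receptor genes of the family are on chromosome 9 in the RefSeq gene table. Of the 14 measured non-member genes nearest to Ccr1, 0 passed limma's threshold in KO against WT on average or in any population (3, 2, 2 and 0 at an unadjusted p under 0.05). The receptor genes next to Ccr1 in the order of the table, Ccr1l1 and Ccr3 on one side and Xcr1 and Cxcr6 on the other, were below the floor on all 14 arrays. Sacm1l, a lipid phosphatase gene of this neighbourhood, had the smallest p on average, with -0.44 ± 0.12 (limma, adjusted p = 0.296). The median log2 difference of the 14 genes was -0.05 on average, against 0.03 over all genes.

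In the WT series from LSK through CMP to GMP, the 6 receptors followed different courses. Ccr2 read 498 and 213 in WT LSK, 1992 and 2141 in WT CMP and 2109 and 2536 in WT GMP. It was 6.34-fold higher in CMP than in LSK (2.66 ± 0.32) and 7.09-fold higher in GMP than in LSK (2.83 ± 0.32), and CMP and GMP overlapped. Cx3cr1 and Cxcr2 peaked in CMP: Cx3cr1 was 2.60-fold higher in CMP than in LSK and 1.76-fold lower in GMP than in CMP, and Cxcr2 was 3.12-fold higher and then 2.05-fold lower. Ccr1 was at least 1.20-fold higher in CMP and at least 1.48-fold higher in GMP than in LSK. The log2 difference of Ccr9 in GMP against LSK was -3.70 ± 1.39. Cxcr4 differed by at most 0.32 log2 units between any 2 of the 3 populations.

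Of the 6 receptors, 2 passed the threshold in CMP against LSK (Ccr2 and Cx3cr1), 0 in GMP against CMP and 2 in GMP against LSK (Ccr1 and Ccr2), where 1.53%, 0.89% and 7.09% of all genes did, and nothing is read from these counts. Of the 16 other receptors, limma called 1 in each comparison with LSK and 0 in GMP against CMP (1 at an unadjusted p under 0.05). The called gene was Ccr7, at least 1.34-fold lower in CMP than in LSK (limma, adjusted p = 0.0178) and at least 1.40-fold lower in GMP (limma, adjusted p = 0.00158). Both Ccr7 calls were lost when values below the floor were set to the floor, and when only the arrays compared were fitted. The call in CMP was also lost without the first WT LSK array or either WT CMP array. Of the 35 ligands, limma called 1 as higher (Pf4) and 1 as lower (Ccl27a) in CMP against LSK, 3 as lower in GMP against LSK (Ccl27a, Ccl4 and Cxcl12), and 0 in GMP against CMP (3 at an unadjusted p under 0.05). The platelet chemokine Pf4 was 2.29-fold higher in CMP than in LSK (limma, adjusted p = 0.0184), a call lost without the first WT LSK array (0.91 on the log2 scale) or either WT CMP array (1.22 and 1.17). Ccl27a was 6.18-fold lower in CMP and 4.93-fold lower in GMP than in LSK. The stromal Cxcr4 ligand Cxcl12 was 9.98-fold lower in GMP than in LSK (limma, adjusted p = 0.00626), and was -3.05 on the log2 scale without the second WT GMP array, where it did not pass (limma, adjusted p = 0.0528), and -1.26 with the median of all probe sets (limma, adjusted p = 0.27). Of the 31 signalling genes, limma called 0 in CMP against LSK and 0 in GMP against CMP. In GMP against LSK it called 3 (Rgs1, Gng2 and Gnb2), 1 as higher and 2 as lower. The Gng2 and Gnb2 calls were lost in 5 and 11 of 22 alternatives. Rgs1, which shortens Gi signals, was 6.50-fold lower in GMP than in LSK (limma, adjusted p = 0.013). The Rgs1 call was lost when only the arrays compared were fitted, and without the first WT LSK array or the second WT GMP array.

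The replated KO cells were low in Cxcr4 and Cxcr2 and high in Cx3cr1. Cxcr4 read 1012 and 945 there, against 7307 to 9035 in the sorted KO arrays. It was 7.69-fold lower than in KO LSK, 8.43-fold lower than in KO CMP and 8.81-fold lower than in KO GMP (-2.94, -3.08 and -3.14, each ± 0.18). Cxcr2 read 17.2 and 14.7, both below the floor, against 22.5 to 322 in sorted KO cells. It was at least 1.57-fold lower than in KO LSK, at least 12.7-fold lower than in KO CMP and at least 9.41-fold lower than in KO GMP. For both genes the replated arrays lay below all sorted KO arrays. The share of all genes separated in this way is not given here, so nothing is read from the separation.

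Cx3cr1 was brighter, at 277 and 304 in replated KO cells against 31.6 to 141 in sorted KO cells. The difference was 3.14 ± 0.25 against KO LSK (8.83-fold), 1.41 against KO CMP and 1.48 against KO GMP. Ccr1 read 305 and 243 and so was near KO CMP (-0.10 ± 0.25, overlapping), above KO LSK (2.88 ± 0.25) and below KO GMP (-0.95 ± 0.25). Its dim probe set put replated cells above all 3, at 73.5 and 79.1, and with the median of both probe sets the difference from KO GMP was 0.21. Ccr2, at 1200 and 1440, lay above KO LSK (0.70 ± 0.32) and below KO CMP (-1.39 ± 0.32) and KO GMP (-1.52 ± 0.32). Its other probe sets had the same signs, though not always without overlap (0.24 ± 0.28 against KO LSK and -0.66 ± 0.52 against KO CMP). Ccr9 (25.3 and 14.8) overlapped each sorted KO group.

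**Figure D5:**
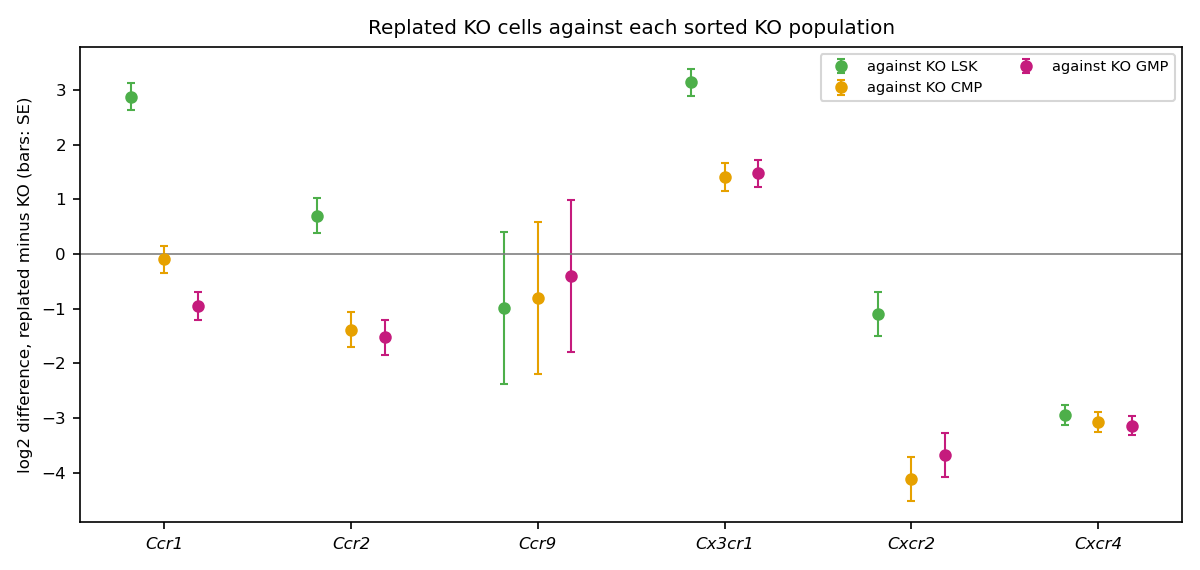
Log2 difference of the main probe set of each receptor, replated KO minus KO LSK, KO CMP and KO GMP, with SE bars, as fitted; the replated arrays are shared by all 3 comparisons. Cxcr4 lies between -3.14 and -2.94, and Cx3cr1 between 1.41 and 3.14.

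These 3 comparisons share the replated arrays, and 25.1%, 24.4% and 25.3% of all genes passed the threshold against KO LSK, KO CMP and KO GMP. Those are 4559, 4432 and 4612 genes, and without the second replated array 2937, 2881 and 3077 passed. Of the 6 receptors, 3, 4 and 5 did (all but Ccr9 against KO GMP), and nothing is read from this. Mature-cell markers differed widely as well. The 8 mast cell and basophil markers summed to 61884 to 63963 in replated KO, against 510 to 601 in KO LSK, 3015 to 3544 in KO CMP and 4084 to 4954 in KO GMP, with all 8 above the floor in replated cells. The late neutrophil markers summed to 177 to 178 in replated KO, with 5 of 9 below the floor, against 12682 to 20039 over the sorted KO arrays. Monocyte and macrophage markers summed to 1071 to 1073, with 6 of 11 below the floor (Csf1r and Adgre1 among them), against 5295 to 12471. Their part in the receptor differences was not tested.

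Among the other 16 receptors, limma called 3 against KO LSK (25.1% of all genes), 3 against KO CMP (24.4%) and 4 against KO GMP (25.3%). Of these, 2 were higher in each comparison, Ackr1 and Ackr4, both atypical receptors that take up chemokines. Ackr1 read 1088 and 948 in replated KO, against 54.0 and 205 in KO LSK, 134 and 257 in KO CMP and 42.1 and 42.6 in KO GMP. That was 9.65-fold higher than KO LSK (limma, adjusted p = 0.00178), 5.47-fold higher than KO CMP (limma, adjusted p = 0.00887) and 24.0-fold higher than KO GMP (limma, adjusted p = 0.00022). Leaving out the first replated array or the first KO CMP array ended the call against KO CMP. Ackr4 read 3456 and 3455 in replated KO, against 411 and 931 in KO LSK, 1385 and 944 in KO CMP and 678 and 571 in KO GMP. Its log2 difference was 2.48 ± 0.34 (limma, adjusted p = 0.000619), 1.60 ± 0.34 (limma, adjusted p = 0.00778) and 2.47 ± 0.34 (limma, adjusted p = 0.00059). Leaving out the other KO CMP array ended its call there, and a dim Ackr4 probe set, above the floor on 2 arrays, showed differences of 0.17, 0.40 and 0.10. The receptors called lower (Ccr7, Ccr8 and Ccr10) were below the floor in both groups compared, so no fold is given.

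Of the 35 ligands, 12, 13 and 13 passed in limma against KO LSK, KO CMP and KO GMP. Over all genes 25.1%, 24.4% and 25.3% passed. Among the ligands that passed, 3, 4 and 3 were higher and 9, 9 and 10 lower. The largest rises among them were in ligands of Ccr2. Ccl2 read 1851 and 1605 in replated KO, against 30.5 to 49.9 in the sorted KO arrays, 54.7-, 38.4- and 38.8-fold higher (limma, adjusted p between 5.87e-08 and 1.02e-07). Ccl7, which binds Ccr1 and Ccr2, read 243 and 237 in replated KO and lay below the floor in all sorted KO groups, so it was at least 11.2-, 9.55- and 9.40-fold higher. The Ccr1 ligands Ccl9, Ccl6 and Ccl3 were lower, while Ccl5, which also binds Ccr1, passed in none of the 3 comparisons. Ccl9 read 162 and 186 against 3741 to 6262 (-4.44, -5.17 and -5.10, each ± 0.17), Ccl6 read 101 and 114 against 766 to 1182, and Ccl3 was at least 19.9-, 7.63- and 7.77-fold lower. Cxcl12, the ligand of Cxcr4, read 15.2 and 16.7 in replated KO and was at least 13.6-fold lower than in KO LSK (limma, adjusted p = 0.000374). The platelet chemokines Pf4 and Ppbp were lower as well. The median difference of the 35 ligands was -0.17, -0.12 and -0.14, against 0.01, -0.07 and -0.06 over all genes.

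In the signalling chain, 14, 11 and 13 of 31 genes passed in limma, 8, 7 and 7 of them higher. Over all genes 25.1%, 24.4% and 25.3% passed. The calls against KO LSK include Cdc42, which was lost in 20 of 22 alternatives. They also include Gng2, whose sign reversed with the median of its probe sets. Gnai1, a Gi alpha subunit, read 1884 and 1403 in replated KO and was below the floor in every sorted KO group, so it was at least 75.5-, 64.6- and 63.6-fold higher. Of the 3 measured kinases that phosphorylate active receptors, Grk3 was lower and Grk5 higher in all 3 comparisons, and Grk6 passed in none. Grk3 read 72.6 and 63.9 in replated KO against 725 to 1322 in sorted KO cells (-4.23, -3.93 and -3.70, each ± 0.45), while Grk5 read 1184 and 1100 against 10.1 to 194 (2.78, 4.76 and 5.31, each ± 0.78). The Grk5 call against KO LSK (limma, adjusted p = 0.0279) was lost when any 1 of the 4 arrays compared was left out, with differences of 2.56 to 3.01. Rgs18, a brake on G protein signals, was higher throughout (1.29, 1.14 and 1.52, each ± 0.13), as was the phosphoinositide kinase Pik3cg. Nup85, a protein that binds Ccr2, was lower (-0.76, -0.86 and -0.85, each ± 0.17). The median difference of the 31 genes was 0.19, 0.24 and 0.19, against 0.01, -0.07 and -0.06 over all genes.

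The order of the groups differed from gene to gene. For Ccr1 it ran KO GMP, KO CMP, replated KO, KO LSK, WT GMP, WT CMP and WT LSK, where KO CMP and replated KO overlapped, as did KO LSK and WT GMP. For Ccr2 KO GMP and KO CMP led, with levels of 3777 and 3439, and WT LSK was last at 326, only WT GMP and WT CMP overlapping as neighbours. For Cxcr2, KO CMP led at 276 and replated KO was last. For Cx3cr1, replated KO led at 290.0 and KO LSK was last at 32.8. For Cxcr4, replated KO was last at 978, and of the sorted groups all neighbours in the order overlapped except WT CMP and KO LSK. For Ccr9 all neighbours overlapped below WT LSK.

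Across the 14 arrays the 6 receptors did not share 1 pattern. Pearson's r of log2 values was 0.64 between Ccr1 and Ccr2, 0.64 between Ccr2 and Cxcr2, 0.67 between Cxcr2 and Cxcr4, and -0.70 between Cx3cr1 and Cxcr4. These are descriptions over arrays that share groups, and the replated arrays weigh on them. Among 6882 genes compared over the 14 arrays, those most like Ccr1 were Hmga2-ps1 (r = 0.895), Tmem184b (0.873), Spats2 (0.852), Hsd17b7 (0.835) and Fam102b (0.834). Hmga2-ps1 had levels of 351 in KO LSK and 34.6 in WT LSK, 764 in KO CMP and 180 in WT CMP, and 918 in KO GMP and 148 in WT GMP. The genes nearest to Cxcr4 were Stk26 (0.992) and Mpo (0.991), the myeloperoxidase gene, at 14.1 in replated KO against 7478 to 12350 in sorted KO groups. Cx3cr1 was most like Cpa3 (0.951), a mast cell protease gene, at 13790 in replated KO against 119 to 1200 in sorted KO groups, and Slc39a6 (0.939). Ccr2 was most like Nagpa (0.904) and Lrrc61 (0.893), Cxcr2 like Mylk3 (0.912) and Med14 (0.893), and Ccr9 like E2f5 (0.879) and Tmem88 (0.851).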

How the data were processed

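Per the labels, total RNA was amplified to cDNA, labelled with biotin and hybridised to 14 Affymetrix mouse arrays, 2 per group. The authors deposited linear intensity values. Per the submitters' processing notes these come from RMA, whose version is not given in the sources used here. Here log2 was taken with no further scaling. The file holds 45101 probe sets, of which the platform annotation gives 34958 a single gene symbol. For each gene the probe set of highest mean over the arrays was used, giving 18194 genes. One limma model (limma 3.58.1, R 4.3.3) with 1 coefficient per group, fitted to all 14 arrays, gave all differences, two-sided, with Benjamini-Hochberg adjustment over all genes; the members' other probe sets were read from the same model on all probe sets. The number of arrays limits the precision.

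The floor was set per array as the highest of 27 bacterial control probe sets. In an "at least" fold the floor, or the probe's own value where higher, stands in for the dimmer group. Between arrays of a group the correlation of log2 values was 0.961 to 0.993. Replicate numbers did not pair the arrays: of 21 pairs of groups, the correlation of deviations was over 0.1 in 1 (range -0.103 to 0.10).

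Named genes were the 6 receptors with all their probe sets; per list and comparison, up to 4 genes past the threshold per direction by smallest p, or up to 2 as values where 0 passed; sort, sex-linked and marker checks; and the genes most like a receptor by Pearson's r. Genes below the floor were mostly left unnamed, and Ccl3 and Cxcl12 were added as ligands of the receptors after their values were seen. The members, lists and rules were chosen with earlier results of these data known. Data were also simulated with 18194 genes, of which 200 were changed in the KO CMP arrays. There 73.3% of changes of size 2 and 91.9% of size 3 (log2) were recovered, with 5 false calls. The simulated noise was independent between arrays, with each gene's spread pooled over all 7 groups. The measured CMP comparison called 22 genes, so these rates check the fit and do not give its power there. Alternatives were another probe set summary, 2 normalizations, 2 filters on dim probes, all probe sets in the fit, only the compared arrays, the replicate number as a block, and each array left out. No scan dates were used, so no batch was tested.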

Additional observations from a re-analysis of the deposited data

Results flagged for a closer look

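The difference of Cx3cr1 between KO and WT ran in opposite directions in 2 populations: both KO arrays were below both WT arrays in LSK (log2 difference -0.53 ± 0.25 SE) and above them in GMP (0.57 ± 0.25 SE). The difference between the populations, GMP minus LSK, was 1.10 ± 0.35 SE and did not pass the adjusted threshold of the limma fit over all genes; nothing is read from this, because the receptors were chosen with these data known.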

How the results depend on the processing

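Of 768 recomputed receptor differences, 740 moved by less than the spread between arrays, and 28 moved further or reversed. Leaving out 1 array cannot move a difference by more than that spread. Fitting all probe sets, leaving out dim genes, fitting only the compared arrays or adding the block does not change a receptor difference at all. Most of the 740 were thus fixed in advance and do not measure robustness. The sign differed in 19 of the 768, of which 16 moved by less than that spread. The other 3 came with the median of all probe sets: Ccr1 in replated KO against KO GMP (0.21) and KO CMP (0.72), and Ccr2 in WT GMP against WT CMP (-0.026). Of 2175 recomputed results of listed genes past the threshold, 1955 kept their side, 217 no longer passed and 3 reversed. All 3 were in replated KO against KO LSK. With the median of probe sets they were Mif (0.031, adjusted p = 0.982 in limma) and Gng2 (0.67, adjusted p = 0.0096 in limma). Gng2 thus passed in the opposite direction, and its probe sets other than the main one gave 1.68, -0.56 and 0.17. With values set to the floor, Ccr7 reversed (0.012). The count of the other 16 receptors past the threshold was 4 in replated KO against KO GMP and became 2 when genes below the floor were left out and 2 when values were set to the floor. In WT CMP against WT LSK and in WT GMP against WT LSK it was 1 and became 0 with values set to the floor, and 0 when only the arrays compared were fitted. Leaving out 1 array at a time gave 0 to 1 for KO against WT on average and in LSK, where Ccr7 passed without the second WT LSK array and Ackr1 passed on average without the first KO LSK array. It gave 0 in CMP and GMP, 2 to 3, 1 to 3 and 2 to 4 in replated KO against KO LSK, KO CMP and KO GMP, 0 to 2 and 1 to 2 in WT CMP and WT GMP against WT LSK, and 0 in WT GMP against WT CMP. Where a group is left with 1 array, it is assumed to vary like the others. With the replicate block the counts were 3, 2 and 4 in the replated comparisons. They were 1 for each of WT CMP and WT GMP against WT LSK, and 0 elsewhere, so the block ended 1 call. Whether the replicate numbers pair the arrays was not settled. Over all genes, the count past the threshold in KO against WT was 56 on average (27 to 126 over the alternatives), 48 in LSK (0 to 249), 22 in CMP (2 to 66) and 17 in GMP (6 to 30), lowest with only the compared arrays. In replated KO it was 4559 (2937 to 4784) against KO LSK, 4432 (2881 to 4710) against KO CMP and 4612 (3077 to 5865) against KO GMP, lowest without the second replated array. In WT cells it was 278 (13 to 534), 162 (0 to 187) and 1290 (189 to 1543) in CMP against LSK, GMP against CMP and GMP against LSK. With 2 arrays a group, probe sets near the floor have only bounds.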
